A study of Mus musculus with 4 samples.

Results

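Endotoxin sensing and the acute phase were followed through 10 genes in mouse bone marrow stromal cells after deletion of Setd2. They were Lbp, Cd14, Ly96, Tlr4, Tlr2, Myd88, Saa3, Ptx3, Hp and Lcn2, each taken by its symbol from a table of 44788 genes, and all 10 were found. Lipopolysaccharide, the endotoxin of Gram-negative bacteria, is passed by the serum protein LBP to CD14, which hands it to a complex of TLR4 and MD-2 on the cell surface. The adaptor MyD88 then leads to NF-kappaB, a transcription factor that raises genes of inflammation. Secreted acute-phase proteins, which bind iron carriers, haemoglobin, lipids or microbes, are among its later products, and stromal cells make several of them outside the liver.

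The cells came from Setd2 fl/fl mice of strain C57BL/6J and were used at passage 2. The Cre group received a lentivirus carrying Cre, the recombinase that cuts out the floxed piece of Setd2, the methyltransferase gene for trimethylation of lysine 36 on histone H3. The GFP group received a lentivirus with GFP, and both groups were kept in 2 µg/ml puromycin for 4 days. Each group had 2 RNA-seq libraries. The design does not separate the loss of Setd2 from Cre itself, and nothing in the labels tells if libraries within a group derive from different cultures or mice. The p-values therefore rest on the spread among these 4 libraries alone, and that spread may be technical.

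Setd2 had 551 and 468 counts in the Cre libraries, against 1400 and 1250 counts in the GFP libraries, as the labels have it. Its log2 fold change was -1.60 (standard error 0.08; edgeR adjusted p = 3.65e-15), and over 13 alternatives the adjusted p ranged from 8.31e-66 to 0.124, the highest being without GFP replicate 2. Library totals lay between 12371994 and 14315903 counts. GFP replicate 2 stood apart, with 7.45% of its counts on the 18S ribosomal RNA gene Rn18s-rs5, against 1.21% to 2.07% in the other libraries. The median chi-square over counting noise, with libraries scaled by their totals alone, was 1.78 between the Cre libraries and 3.85 between the GFP libraries. It was 3.43 to 5.85 between a Cre and a GFP library. On this measure the GFP pair differed by more than Cre replicate 1 and GFP replicate 1 did. A difference in composition between 2 libraries enters the measure, and its part was not tested. Levels are given as CPM, counts scaled to a common library total, with library sizes adjusted by TMM. Tests are edgeR's quasi-likelihood test on the counts of all genes past a low-count filter, with Benjamini-Hochberg adjustment over these 14483 genes and a threshold of 0.05 on the adjusted p. Of 10 stromal markers 3 rose (Thy1, Col1a1 and Col1a2) and 1 fell (Cxcl12), where 3.74% of all tested genes rose and 3.22% fell. Col1a1, a collagen gene, averaged 9901 ± 367 CPM in Cre and 6896 ± 20.6 CPM in GFP (SD, n = 2 each). With either GFP library left out edgeR called 0 of these 4 stromal markers, and with all libraries DESeq2 called all but Thy1. All 15 macrophage markers were also detected in every library, so the cultures held RNA of myeloid cells beside that of stromal cells.

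The secreted acute-phase products were lower in Cre, while the receptors and the adaptor did not pass the test. Of the 9 genes tested, 4 fell (Ptx3, Lcn2, Saa3 and Hp). Among all tested genes 3.22% fell, 3.74% rose and 6.97% passed in either direction. The falls were 1.74-fold for Ptx3, 1.96-fold for Lcn2, 1.38-fold for Saa3 and 1.35-fold for Hp. The test called 0 of the 9 genes higher in Cre, and DESeq2 and limma-voom also called 0 higher. At an unadjusted edgeR p under 0.05, 2 of the 9 (Cd14 and Tlr2) were higher and 4 lower. At that cut 1531 of all 14483 tested genes were higher and 1500 lower. Both Cre libraries lay above both GFP libraries in CPM for 2 of the 9 genes and below for 4, as they did for 24.5% and 25.5% of all tested genes. Lbp was too low for the test. The calls depended on the GFP libraries and, for Lcn2 and Hp, on Cre libraries as well. The fold changes of the 4 stayed below 0. That of Hp moved most with Cre libraries, at -0.31 without Cre replicate 1 and -0.57 without Cre replicate 2. With GFP replicate 1 or GFP replicate 2 left out, the log2 fold changes were -0.74 and -0.85 for Ptx3, -0.39 and -0.54 for Saa3, -0.87 and -1.05 for Lcn2, and -0.45 and -0.42 for Hp. The test called 0 of the 4 without GFP replicate 1, when it called 12 genes in all (0.0803%), and 0 of the 4 without GFP replicate 2, when it called 0 genes and 2197 had an unadjusted p under 0.05. The calls counted for single genes come from 13 alternatives, and each has its own share of all tested genes called. That share was 6.99% with median-of-ratios size factors, 3.66% with library size alone, 3.55% with DESeq2, 7.19% with limma-voom, 0.118% without a low-count filter and 8.34% with at least 1 CPM in 2 libraries. It was 5.72% with a replicate block, 9.21% with robust dispersion, 6.79% without 6 abundant noncoding RNA rows, 3.51% without Cre replicate 1 and 2.53% without Cre replicate 2.

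**Figure D1:**
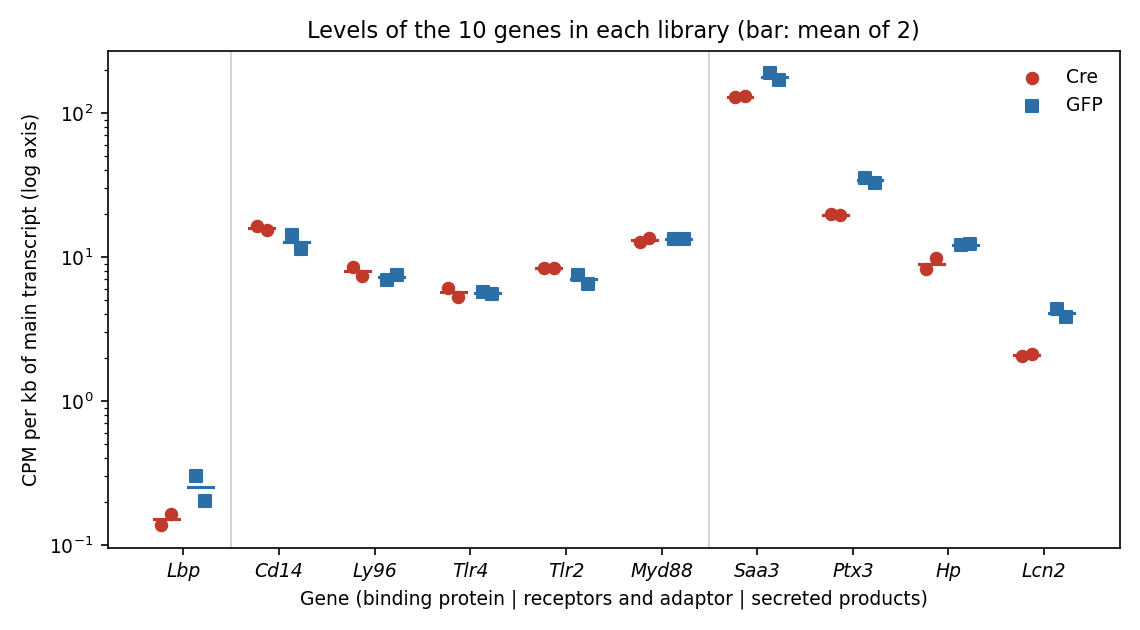
Level of each of the 10 genes in every library, in CPM per kilobase of the main transcript on a log axis, with Cre libraries as red circles, GFP libraries as blue squares and bars at the mean of 2. The 4 secreted products on the right have both Cre libraries below both GFP libraries, and Lbp lies lowest in both groups.

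**Figure D2:**
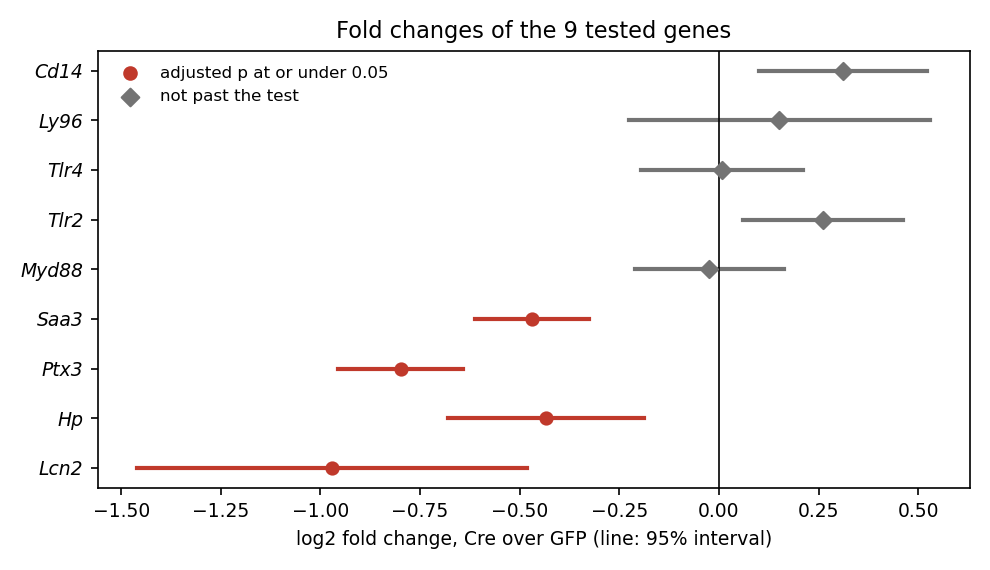
Log2 fold change of Cre over GFP for the 9 tested genes, with the 95% interval of the edgeR fit as a line. The intervals of Saa3, Ptx3, Hp and Lcn2 lie below 0, those of Tlr4, Ly96 and Myd88 include 0, and Cd14 and Tlr2 lie above 0 but did not pass the adjusted threshold.

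Ptx3 encodes the long pentraxin, a secreted pattern recognition protein that binds microbes and complement and takes part in hyaluronan-rich matrix. The gene lies on chromosome 3 from 66219887 to 66225806 (GRCm38), on the plus strand. Ptx3 had 547 and 535 counts in the Cre libraries and 888 and 733 counts in the GFP libraries. Both Cre libraries were low and the groups did not overlap. On the normalized scale Ptx3 averaged 37.4 ± 0.622 CPM in Cre and 65.0 ± 3.65 CPM in GFP (SD, n = 2 each). The log2 fold change was -0.80 with a standard error of 0.08, and the edgeR adjusted p was 2.07e-08. Its fall passed under 11 of 13 alternatives, and the 2 that lost it left out a GFP library. Without GFP replicate 1 it was -0.74 (edgeR adjusted p = 0.112) and without GFP replicate 2 -0.85 (edgeR adjusted p = 0.164). Over all 13 the adjusted p ranged from 4.19e-19 to 0.164.

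Saa3 encodes a serum amyloid A protein, an apolipoprotein of the acute phase that in the mouse is made chiefly outside the liver. It lies on chromosome 7 from 46711998 to 46719615, on the minus strand. Saa3 had 1033 and 1044 counts in the Cre libraries and 1373 and 1105 counts in the GFP libraries. In CPM the values were 71.5 and 72.2 in Cre, against 104.5 and 94.1 in GFP. The raw counts of Cre replicate 2 and GFP replicate 2 were close. Both Cre libraries were already below both GFP libraries, and scaling of the smaller GFP libraries widened the gap. The log2 fold change of Saa3 was -0.47 with a standard error of 0.07 (edgeR adjusted p = 3.53e-05). It passed under 10 of 13 alternatives, with adjusted p-values from 1.05e-08 to 0.217, and without a low-count filter the edgeR adjusted p was 0.118. It was -0.39 without GFP replicate 1 (edgeR adjusted p = 0.217) and -0.54 without GFP replicate 2 (edgeR adjusted p = 0.186). The liver-type copies Saa1 and Saa2 had at most 1 count in any library, and 4.15% of the 50-base stretches of Saa3 transcripts recur in transcripts of other genes.

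Lcn2 encodes lipocalin 2, which binds bacterial siderophores and so withholds iron from microbes. The gene lies on chromosome 2 from 32384637 to 32387739, on the minus strand. Lcn2 had 27 and 28 counts in the Cre libraries and 52 and 41 counts in the GFP libraries. The replicates of each group were close and the groups did not overlap. Lcn2 averaged 1.90 ± 0.0471 CPM in Cre and 3.72 ± 0.330 CPM in GFP (SD, n = 2 each). Its log2 fold change was -0.97, the largest fall of the 9 tested genes, but its standard error of 0.24 was also the widest (95% interval -1.46 to -0.48; edgeR adjusted p = 0.01). It passed under 7 of 13 alternatives, and DESeq2 gave it no adjusted p. Without a low-count filter its edgeR adjusted p was 0.166. The 12 adjusted p-values ranged from 0.00343 to 0.281, and the call was lost without any 1 of the 4 libraries, with fold changes from -1.05 to -0.87 on the log2 scale.

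Hp encodes haptoglobin, the plasma protein that captures free haemoglobin. It lies on chromosome 8 from 109575128 to 109579172, on the minus strand. Hp had 159 and 190 counts in the Cre libraries and 212 and 194 counts in the GFP libraries. In CPM it stood at 11.0 and 13.1 in Cre, against 16.1 and 16.5 in GFP. Cre replicate 1 was lowest, and Cre replicate 2 lay close to GFP replicate 2 before scaling. The log2 fold change of Hp was -0.44 with a standard error of 0.12 (edgeR adjusted p = 0.0233). It passed under 7 of 13 alternatives, and adjusted p-values ranged from 0.00815 to 0.339. The fall was not called without Cre replicate 1 (-0.31; edgeR adjusted p = 0.280), without GFP replicate 1 (-0.45; edgeR adjusted p = 0.313), without GFP replicate 2 (-0.42; edgeR adjusted p = 0.324), by DESeq2 (adjusted p = 0.339), with scaling by library size alone (edgeR adjusted p = 0.102) or without a low-count filter (edgeR adjusted p = 0.272).

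Lcn2 and Hp are also stored in granules of neutrophils, as is Ptx3. The neutrophil markers S100a9, Elane, Retnlg and Cxcr2 had 0 counts in all 4 libraries, Mpo had at most 1 count and Ly6g at most 2. S100a8 had 35 and 30 counts in Cre and 25 and 32 counts in GFP. Csf3r had 49 and 26 counts in Cre and 41 and 50 counts in GFP. Camp had 9 and 20 counts in Cre and 22 and 14 counts in GFP. The 14 neutrophil markers summed to 18.3 and 15.8 CPM in Cre and to 17.8 and 20.6 CPM in GFP. The test called 0 of the 4 abundant enough to test, with 0 at an unadjusted p under 0.05, and DESeq2 and limma-voom called 0. All 4 lay below 0, with a median log2 fold change of -0.28, as did 7402 of all 14483 tested genes. Most of the sum came from Mmp8, which had 165 and 148 counts in Cre and 141 and 142 counts in GFP. The macrophage markers taken up below summed to 2768 and 2777 CPM in Cre and to 2365 and 2471 CPM in GFP. Which cells the RNA of the 4 products came from was not tested. In bulk RNA, fewer cells of a type and less RNA per cell cannot be told apart.

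The bases upstream of 3 of the 4 lower genes are shown beside those of a receptor gene and the adaptor gene, as members that fell together and members that did not pass. RefSeq starts on GRCm38.p6 were found for 5 of the 10 genes, and 250 bases before each start are given 5′ to 3′. For Saa3 and Tlr2 the start in that table lies inside the span of the gene. Capitals mark matches, on either strand, to a C/EBP motif (TTGCNNAA), a relaxed kappaB motif (GGGA, any bases, then CC, 10 bases in all) or a STAT motif (TTCNNNGAA), chosen as motifs of acute-phase genes.
Ptx3, chr3:66219637-66219886, plus strand: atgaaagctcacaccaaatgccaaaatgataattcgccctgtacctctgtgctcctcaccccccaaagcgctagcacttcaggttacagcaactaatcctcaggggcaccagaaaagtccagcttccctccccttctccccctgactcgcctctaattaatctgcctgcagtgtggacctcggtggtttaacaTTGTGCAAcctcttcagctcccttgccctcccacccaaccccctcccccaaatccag
Saa3, chr7:46715677-46715926, minus strand: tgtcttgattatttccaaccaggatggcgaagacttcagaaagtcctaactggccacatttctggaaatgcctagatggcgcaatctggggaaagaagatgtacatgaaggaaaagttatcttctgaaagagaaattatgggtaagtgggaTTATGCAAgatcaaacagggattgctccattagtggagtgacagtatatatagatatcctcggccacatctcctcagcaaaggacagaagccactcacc
Lcn2, chr2:32387740-32387989, minus strand: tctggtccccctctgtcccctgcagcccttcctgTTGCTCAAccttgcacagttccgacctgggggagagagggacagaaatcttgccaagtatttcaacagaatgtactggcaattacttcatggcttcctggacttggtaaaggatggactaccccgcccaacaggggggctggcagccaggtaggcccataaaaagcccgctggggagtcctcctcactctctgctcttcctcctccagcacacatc
Tlr2, chr3:83841609-83841858, minus strand: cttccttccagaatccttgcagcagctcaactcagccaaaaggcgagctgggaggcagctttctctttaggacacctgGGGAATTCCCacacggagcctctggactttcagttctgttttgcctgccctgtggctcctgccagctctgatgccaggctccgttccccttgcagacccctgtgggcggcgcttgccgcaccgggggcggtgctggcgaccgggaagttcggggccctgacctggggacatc
Myd88, chr9:119340019-119340268, minus strand: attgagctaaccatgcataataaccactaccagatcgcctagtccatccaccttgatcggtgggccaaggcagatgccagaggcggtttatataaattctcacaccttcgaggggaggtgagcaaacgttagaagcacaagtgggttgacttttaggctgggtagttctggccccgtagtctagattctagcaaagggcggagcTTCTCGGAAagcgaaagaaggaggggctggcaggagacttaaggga
No 2 motifs overlapped in these windows. Ptx3 had a C/EBP match from 57 to 50 bases before its start, Saa3 one from 99 to 92 and Lcn2 one from 216 to 209. The windows of Tlr2 and Myd88 had none. Of all 32851 windows of this length, 9.56% held a C/EBP match. Tlr2 had the only relaxed kappaB match, from 172 to 163 bases before its start, where 17.6% of all windows held one. Myd88 had the only STAT match, from 46 to 38 bases before its start, where 7.02% of all windows held one. These matches are descriptions of letters, and binding of a factor was not measured. The motifs were chosen late, with the fold changes known, so the contrast between these windows is a description without a test. Hp, the other lower gene, had no window. The genes of 3 C/EBP factors had log2 fold changes of 0.04 for Cebpa (edgeR adjusted p = 0.829), -0.04 for Cebpb (edgeR adjusted p = 0.848) and -0.14 for Cebpd (edgeR adjusted p = 0.413).

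Lbp, the gene of lipopolysaccharide-binding protein, was close to the limit of detection. It lies on chromosome 2 from 158306493 to 158332852, on the plus strand. Lbp had 5 and 6 counts in the Cre libraries and 10 and 6 counts in the GFP libraries. GFP replicate 1 was the highest, and Cre replicate 2 and GFP replicate 2 had the same count. Summed over libraries, Lbp stood at 0.380 CPM in Cre, with an exact 95% Poisson interval of 0.190 to 0.681, and at 0.643 CPM in GFP, with an interval of 0.368 to 1.04. The ratio of Cre to GFP was 0.592, and its exact 95% interval from counting error alone, 0.248 to 1.36, includes no difference. Reads carry no molecular identifiers, so these intervals cover counting error only. Without a low-count filter edgeR gave Lbp a log2 fold change of -0.73 (adjusted p = 0.689), and a change of Lbp was not detectable at this depth. Bpi, the gene of a related lipopolysaccharide-binding protein of neutrophils, had 0 counts in all 4 libraries.

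Cd14, the gene of the anchored coreceptor that receives lipopolysaccharide from LBP, was higher in Cre without passing the test. It lies on chromosome 18 from 36725064 to 36726815, on the minus strand. Cd14 had 389 and 368 counts in the Cre libraries and 307 and 219 counts in the GFP libraries. Both Cre libraries were above both GFP libraries, and GFP replicate 2 was the lowest. Cd14 averaged 26.2 ± 1.05 CPM in Cre and 21.0 ± 3.33 CPM in GFP (SD, n = 2 each). The log2 fold change was 0.31, with a 95% interval of 0.10 to 0.52 (edgeR adjusted p = 0.0646). It passed with a filter of at least 1 CPM in 2 libraries (edgeR adjusted p = 0.0426) and with robust dispersion estimates (edgeR adjusted p = 0.0272), and over 13 alternatives the adjusted p ranged from 0.0272 to 0.457. Its value was 0.17 without GFP replicate 2 and 0.49 without GFP replicate 1.

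Tlr4, the gene of the lipopolysaccharide receptor itself, lies on chromosome 4 from 66827551 to 66846581. Tlr4 had 361 and 311 counts in the Cre libraries and 308 and 267 counts in the GFP libraries. In CPM it was 25 and 21.5 in Cre and 23.4 and 22.7 in GFP, so the GFP values lay between those of Cre. The log2 fold change of Tlr4 was 0.01, with a 95% interval of -0.20 to 0.21 (edgeR adjusted p = 0.977). Its sign turned with single libraries, to -0.10 without Cre replicate 1 and -0.01 without GFP replicate 2. Ly96, on chromosome 1 from 16688456 to 16709605, encodes MD-2, the part of the receptor complex that holds the lipid of lipopolysaccharide. Ly96 had 78 and 68 counts in the Cre libraries and 57 and 56 counts in the GFP libraries. The groups overlapped in CPM, with 5.40 and 4.70 in Cre and 4.34 and 4.77 in GFP. Its log2 fold change was 0.15, with a 95% interval of -0.23 to 0.53 (edgeR adjusted p = 0.700).

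Tlr2, the receptor gene for bacterial lipoproteins, lies on chromosome 3 from 83836272 to 83841824. Tlr2 had 366 and 363 counts in the Cre libraries and 294 and 230 counts in the GFP libraries. The Cre libraries were nearly equal and lay above both GFP libraries, of which GFP replicate 2 was lower. Tlr2 averaged 25.2 ± 0.170 CPM in Cre and 21.0 ± 1.97 CPM in GFP (SD, n = 2 each). The log2 fold change of 0.26 had a 95% interval of 0.06 to 0.46 and an edgeR adjusted p of 0.109. It passed under 0 of 13 alternatives, DESeq2 and limma-voom among them, with adjusted p-values from 0.0806 to 0.566 and an unadjusted edgeR p of 0.0126 in all libraries. Myd88, the adaptor gene, lies on chromosome 9 from 119335934 to 119340018. Myd88 had 360 and 382 counts in the Cre libraries and 344 and 305 counts in the GFP libraries. In CPM the groups overlapped, with 24.9 and 26.4 in Cre and 26.2 and 26.0 in GFP. Its log2 fold change was -0.02, with a 95% interval of -0.21 to 0.16 (edgeR adjusted p = 0.924). Its sign turned to 0.01 with scaling by library size alone and to 0.02 without Cre replicate 1. Exons of Acaa1a, on the opposite strand, lie over 11.3% of the exon bases of Myd88. The strand setting of the counting was not given, so the count of Myd88 is uncertain. Acaa1a averaged 45.6 ± 1.18 CPM in Cre and 39.2 ± 0.668 CPM in GFP (SD, n = 2 each).

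Cd14 and Tlr2 are also expressed by macrophages. Of 15 macrophage markers, 4 rose (C1qb, Cd68, Lyz2 and Tyrobp) and 1 fell (Emr1, the gene of F4/80). Of all tested genes 3.74% rose and 3.22% fell. The median log2 fold change of the 15 markers was 0.14, against -0.004 over all tested genes. Their summed level was 2768 and 2777 CPM in Cre and 2365 and 2471 CPM in GFP, most of it from the lysozyme gene Lyz2. The defining markers went different ways. Cd68 had a log2 fold change of 0.30 (edgeR adjusted p = 0.00296), Emr1 one of -0.30 (edgeR adjusted p = 0.00293), Csf1r one of 0.16 (edgeR adjusted p = 0.213) and Ptprc one of -0.08 (edgeR adjusted p = 0.655). The part of macrophage RNA in the values of Cd14 and Tlr2 was not tested. Without GFP replicate 1 or without GFP replicate 2, edgeR called 0 of these 5 markers. With all libraries DESeq2 called Cd68, Lyz2 and Emr1 but not C1qb or Tyrobp.

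A ratio of counts within a library does not depend on scaling between libraries. The 4 secreted products together had 1.14 and 1.20 counts for each count of the 5 receptor-side genes in the Cre libraries, against 1.93 and 1.92 in the GFP libraries. The replicates of each group were close and the groups lay apart. Leaving out Saa3, the most abundant product, the ratio was 0.472 and 0.505 in Cre and 0.879 and 0.899 in GFP. Leaving out Cd14 instead, it was 1.52 and 1.6 in Cre and 2.52 and 2.42 in GFP. Both groupings of genes were formed with the values known, so the ratio is a description without a test. Among the receptors, Cd14 had 1.08 and 1.18 counts for each count of Tlr4 in Cre, against 0.997 and 0.820 in GFP, and Tlr2 had 1.01 and 1.17 in Cre, against 0.955 and 0.861 in GFP. The ratio of Ly96 to Tlr4, the partners of the receptor complex, was 0.216 and 0.219 in Cre and 0.185 and 0.210 in GFP.

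**Figure D3:**
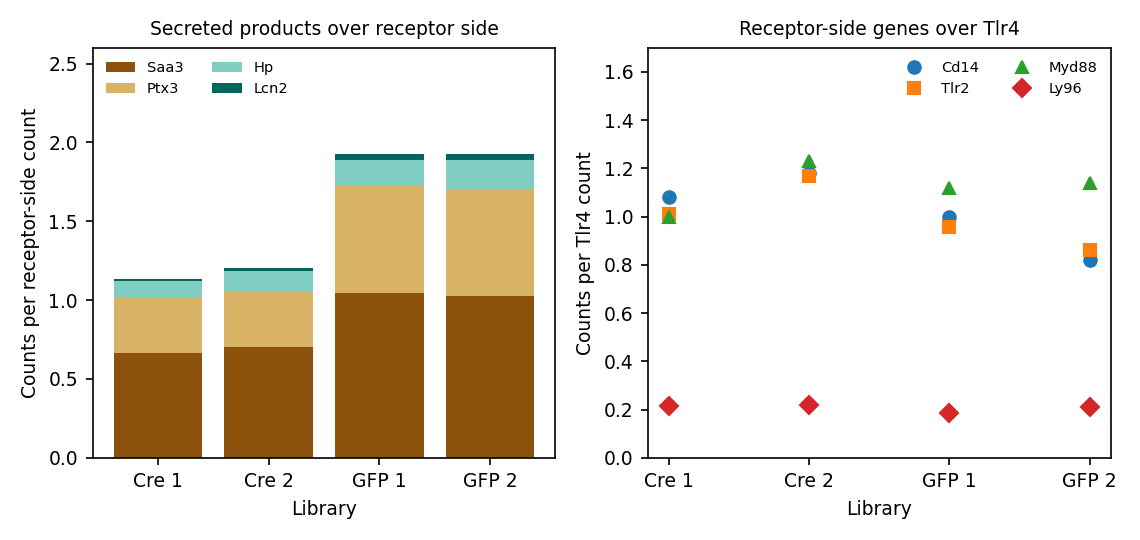
Left, counts of Saa3, Ptx3, Hp and Lcn2, stacked, divided by the summed counts of Cd14, Tlr4, Ly96, Tlr2 and Myd88 in each library. Right, counts of the receptor-side genes divided by those of Tlr4. The stacks reach 1.14 and 1.20 in the Cre libraries and 1.93 and 1.92 in the GFP libraries, while Ly96 stays near 0.2 of Tlr4 in all 4.

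Levels of different genes were compared in CPM per kilobase of the main transcript. Saa3 was highest in both groups, with 129.4 ± 0.847 in Cre and 178.9 ± 13.2 in GFP (SD, n = 2 each). Ptx3 followed with 19.7 ± 0.328 in Cre and 34.2 ± 1.92 in GFP. In Cre the order continued with Cd14 (16), Myd88 (13.1), Hp (8.97), Tlr2 (8.36), Ly96 (7.99), Tlr4 (5.70), Lcn2 (2.08) and Lbp (0.151). The libraries of Hp and Tlr2 overlapped, as did those of Tlr2 and Ly96. In GFP the order continued with Myd88 (13.3), Cd14 (12.8), Hp (12.1), Ly96 (7.20), Tlr2 (6.96), Tlr4 (5.66), Lcn2 (4.07) and Lbp (0.252). There the libraries of Myd88 and Cd14 overlapped, as did those of Cd14 and Hp and those of Ly96 and Tlr2. The transcript of Saa3 used for scaling is short, at 0.555 kilobases, and Saa3 was also first in CPM without scaling by length, at 71.8 in Cre and 99.3 in GFP.

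Across the 4 libraries the genes whose centred log2 CPM lay closest to Ptx3 were Timp3 (distance 0.0627), Kcnn3 (0.0790) and Ddx60 (0.102), and 2 genes lay within 0.1. Closest to Saa3 were Pdzrn3 (0.0256), Gp1ba (0.0296) and Des (0.0433), and closest to Hp were Garem (0.0285) and Tg (0.0330), followed by LOC102634822 (0.0376). Cd14 lay closest to Syce1l (0.0148), Gm14586 (0.0252) and 1110008J03Rik (0.0332), and Tlr2 to Abcd4 (0.00988), Mnda (0.0146) and Tceal8 (0.0178). Closest to Tlr4 were Mynn (0.0171), Gm18541 (0.0194) and Ccdc92 (0.0199), and closest to Myd88 were Txndc5 (0.00462), Ndn (0.00658) and Rilpl2 (0.0135). With 4 libraries such likeness is common, and 1525 genes lay within 0.1 of Myd88.

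The lists of the rest of the pathway are given beside the 6.97% of all tested genes that passed. At an unadjusted edgeR p under 0.05, 1531 of all 14483 tested genes were higher and 1500 lower. Among 8 other Toll-like receptor genes tested edgeR called 0, with 1 lower at an unadjusted p under 0.05, and DESeq2 and limma-voom called 0. Of 23 adaptor and kinase genes, 2 passed, both lower. These were Map3k7, the gene of the kinase TAK1 (-0.23; edgeR adjusted p = 0.0301), and Tab2, the gene of its partner (-0.20; edgeR adjusted p = 0.0423). The median of these 23 was -0.02, with 4 lower and 2 higher at an unadjusted edgeR p under 0.05. Tirap (0.01), Ticam1 (0.25), Ticam2 (-0.31) and Irak4 (-0.11) did not pass. Of 5 NF-kappaB subunit genes, 1 passed, Nfkb1, which averaged 76.6 ± 4.04 CPM in Cre and 92.7 ± 3.49 CPM in GFP (SD, n = 2 each; log2 fold change -0.28, edgeR adjusted p = 0.0109). The 5 subunit genes had a median of -0.24, with 3 lower and 1 higher at an unadjusted edgeR p under 0.05. Among 13 inhibitors of the pathway edgeR called 0, with 2 higher at an unadjusted p under 0.05, and DESeq2 and limma-voom called 0. Of 11 other genes of lipopolysaccharide binding and uptake, the scavenger receptor gene Msr1 rose (0.24; edgeR adjusted p = 0.0186), while Hsp90b1, the chaperone gene for Toll-like receptors (0.12), Cd180 (-0.14) and Ly86 (0.34) did not pass. Of these 11, 2 were higher and 0 lower at an unadjusted edgeR p under 0.05. Of 9 genes of cytosolic sensing, the interferon-induced GTPase gene Gbp3 fell (-0.41, edgeR adjusted p = 0.0399). Casp4, the gene of the caspase that binds lipopolysaccharide in the cytosol, stood at -0.42 (edgeR adjusted p = 0.123). The median of these 9 was -0.26, with 6 lower and 2 higher at an unadjusted edgeR p under 0.05. Without GFP replicate 1 or 2, edgeR called 0 of the genes called in these lists, and DESeq2 called 0 of them with all libraries.

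Of 26 other acute-phase genes listed, 9 were abundant enough to test. Among them 1 fell and 1 rose, 6 lay below 0, and the median log2 fold change was -0.06. Of all 14483 tested genes 3.22% fell, 3.74% rose and 7402 lay below 0. C3, the central complement gene, had 201 and 234 counts in the Cre libraries and 267 and 289 counts in the GFP libraries, and fell (-0.57; edgeR adjusted p = 0.00153). Mt1, a metallothionein gene, was higher at 63.6 ± 1.82 CPM in Cre and 52.7 ± 0.196 CPM in GFP (0.27; edgeR adjusted p = 0.0183). Of 19 genes of interleukin 6 and interleukin 1 signalling, which drive acute-phase genes, 1 rose and 2 fell. At an unadjusted edgeR p under 0.05, 1 of the 19 was higher and 6 lower, against 1531 and 1500 of all tested genes. Il1rn, the gene of the interleukin 1 receptor antagonist, rose (0.33; edgeR adjusted p = 0.00425), while Lif (-0.23; edgeR adjusted p = 0.0343) and Il6st, the gene of the shared receptor chain gp130 (-0.21; edgeR adjusted p = 0.0403), fell. Il6 had 57 and 54 counts in the Cre libraries and 67 and 69 counts in the GFP libraries (-0.51; edgeR adjusted p = 0.10). Tnf stood at 0.12 (edgeR adjusted p = 0.694), and Il1b had 9 and 5 counts in Cre and 2 and 1 counts in GFP, below the filter. Without GFP replicate 1 or 2, edgeR called 0 of these 5 genes, and DESeq2 called 0 of them with all libraries.

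**Figure D4:**
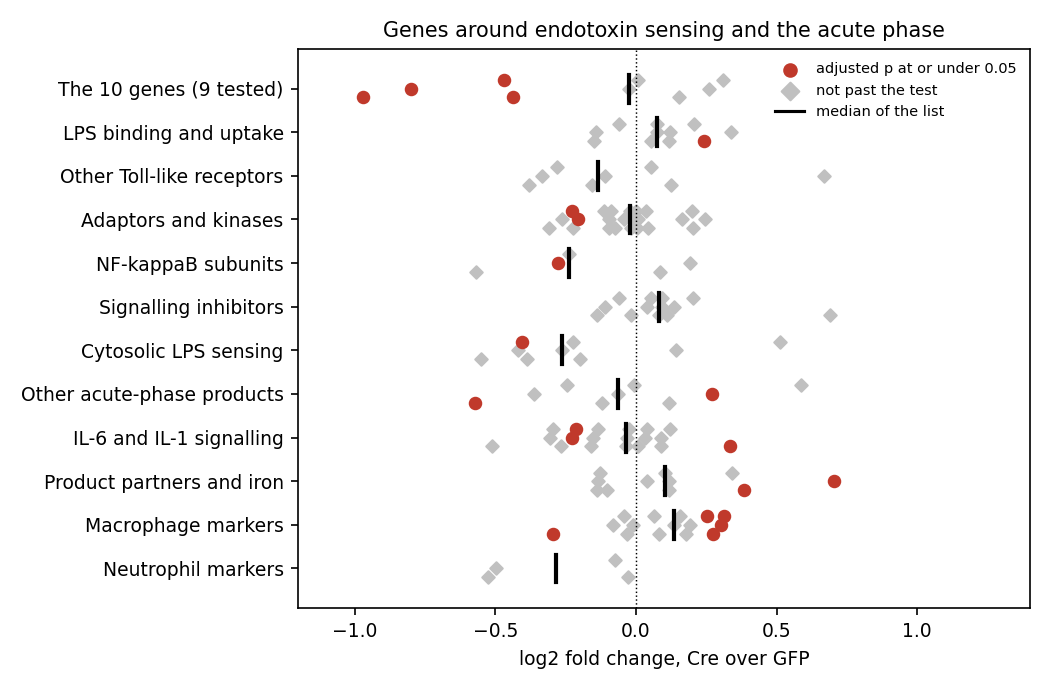
Log2 fold change of Cre over GFP for each tested gene of the 10 followed here and of 11 surrounding gene lists, with the median of each list as a black line. Red circles passed an adjusted p of 0.05 and grey diamonds did not. The 4 circles of the first row lie from -0.97 to -0.44, and the medians of the lists lie between -0.28 and 0.14.

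**Figure D5:**
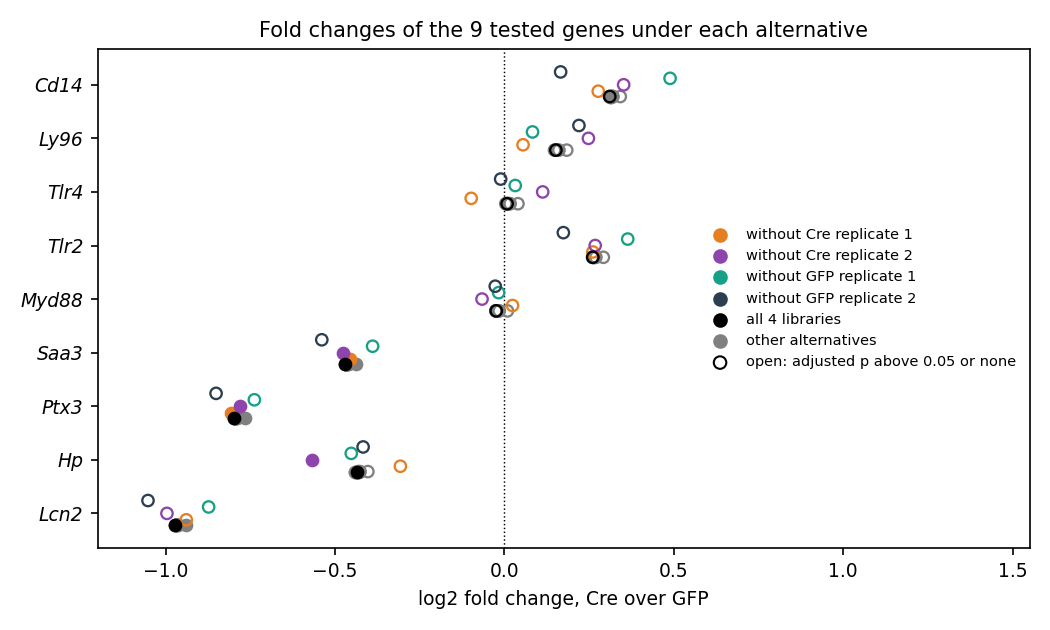
Log2 fold change of the 9 tested genes in all 4 libraries (black), without each library (colours) and under the other alternatives (grey), with filled circles for an adjusted p at or under 0.05. Ptx3, Saa3, Hp and Lcn2 lie below 0 under every alternative shown, and their circles are open without either GFP library.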

How the data were processed

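Read counts per gene were deposited by the authors as whole numbers with no normalization, 1 column per library. The submitters' processing notes name HISAT2 and the GRCm38 build. Libraries were made with a TruSeq kit from 1 µg of total RNA, per the labels' protocols. The counting program, annotation, strand setting and treatment of reads with several matches were not given in the sources used here.

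Counts were tested with edgeR 4.0.16 in R 4.3.3, after filterByExpr (minimum count 10, minimum total 15), TMM scaling (factors 0.951 to 1.03) and with group as the only term. The fit was also run on counts simulated with its own dispersions, which does not show how well it suits these libraries. CPM use TMM-scaled totals, and each log2 fold change sets Cre over GFP, with 95% intervals from the fit. Between 12371994 and 14315903 counts per library set the precision, and 3 counts correspond to 0.210 to 0.242 CPM.

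Positions are RefSeq's on GRCm38.p6. Main transcripts are the APPRIS principal transcripts of GENCODE M21, which also gave exon overlaps and shared 50-base stretches. Groups came from the labels.

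The 10 genes and the gene lists were chosen with earlier results of these data known. From each list the called genes were named, up to 4 by size of change, beside fixed macrophage, neutrophil and pathway genes given whatever their values, and for the more abundant of the 10 the 3 genes closest in centred log2 CPM. Tyrobp, Cebpa, Cebpb, Cebpd, Acaa1a, Mmp8, Retnlg, Cxcr2, Csf3r, Camp, Hamp and the iron genes that did not pass were named outside this rule, after their values were seen. The motifs were chosen late too. Alternatives were other scalings, DESeq2 1.42.0, limma-voom 3.58.1, other filters, a block on the replicate number, robust dispersion, removal of 6 abundant RNA rows, a threshold of 0.01, and each library left out.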

Additional observations from a re-analysis of the deposited data

How the results depend on the processing

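Over all genes, DESeq2 called 250 higher and 128 lower in Cre, scaling by library size alone 347 and 183, an adjusted p of 0.01 gave 257 and 220, and edgeR without a low-count filter gave 18 and 12, against 542 and 467. Of the 10 genes, 4 were lower in Cre, against 2 with DESeq2, 2 at an adjusted p of 0.01 and 1 without a filter. That 1 was Ptx3. With a filter of 1 CPM in 2 libraries and with robust dispersion, 1 (Cd14) was called higher. Without each library, the numbers ranged from 0 to 257 higher and 0 to 259 lower over all genes, and from 0 to 3 lower among the 10. Setd2 ranged from -1.71 to -1.48, and passed without each library but GFP replicate 2 (adjusted p = 0.124). Signs turned for Myd88 (0.009 with library size alone, and -0.066 to 0.024 without each library) and Tlr4 (-0.098 to 0.113 without each library). Lbp, untested in the main fit, had log2 ratios of mean CPM from -1.0 to -0.43. A library left alone in its group is assumed to vary like the other group, and the cause of lost calls was not tested. With the replicate number as a block, 441 genes were higher and 388 lower, with the same 4 of the 10 lower. Same-numbered libraries did not deviate together (r = -0.00886 across 14483 genes, which are not independent), so the numbers are not taken to pair them. At this depth the counting interval of the Lbp ratio spans 0.248 to 1.36.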

Other observations

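Of 11 tested genes that act with lipocalin, haptoglobin and pentraxin 3 or in iron transport, 2 passed, both higher in Cre. Of all tested genes 6.97% passed and 3.74% were higher. Slc40a1, the gene of the iron exporter ferroportin, had 756 and 683 counts in the Cre libraries and 423 and 338 counts in the GFP libraries. It averaged 49.8 ± 3.62 CPM in Cre and 30.5 ± 2.41 CPM in GFP (SD, n = 2 each). Its log2 fold change was 0.70 (standard error 0.09; edgeR adjusted p = 1.28e-06). Trf, the gene of the iron carrier transferrin, averaged 23.1 ± 1.59 CPM in Cre and 17.8 ± 0.670 CPM in GFP (SD, n = 2 each; log2 fold change 0.38, edgeR adjusted p = 0.0187). Without GFP replicate 1 the values were 0.79 for Slc40a1 (edgeR adjusted p = 0.185) and 0.34 for Trf (edgeR adjusted p = 0.315), and without GFP replicate 2 they were 0.63 (edgeR adjusted p = 0.226) and 0.42 (edgeR adjusted p = 0.297). Over all 13 alternatives the adjusted p of Slc40a1 ranged from 4.09e-13 to 0.226 and that of Trf from 0.00679 to 0.315.

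The storage and uptake genes of iron did not pass. Log2 fold changes were 0.04 for the ferritin chain gene Fth1, 0.12 for Ftl1, 0.11 for the transferrin receptor gene Tfrc and -0.14 for the haem oxygenase gene Hmox1, which stood at 709 ± 7.64 CPM in Cre and 780 ± 13.9 CPM in GFP (SD, n = 2 each; edgeR adjusted p = 0.188). Slc22a17, a receptor gene for lipocalin 2, stood at -0.10 (edgeR adjusted p = 0.720). Cd163, the receptor gene for haptoglobin bound to haemoglobin, had 4 and 8 counts in Cre and 1 and 3 counts in GFP, below the filter. Hamp, the gene of the hormone that lowers ferroportin, had at most 1 count in any library. Among 5 endothelial markers tested edgeR called 0, and DESeq2 and limma-voom called 0. At an unadjusted edgeR p under 0.05, 1 of the 5 was lower, as were 1500 of all 14483 tested genes.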
